A study of Mus musculus with 10 samples.

Results

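The G2 and mitosis genes followed here are 49 genes of the last stages of the cell cycle, chosen by name among the 55573 rows of each count table, and each of the 49 names matched 1 row. They were measured in bone marrow HSPCs, the stem and progenitor cells that renew the blood, by RNA-seq of rRNA-depleted RNA. The donors were C57BL/6 mice, 16 weeks old per the labels, that had received 500 cGy of total body radiation 6 weeks before. Mice of the Saline group (5 libraries) were given saline subcutaneously and mice of the EGF group (5 libraries) epidermal growth factor, and the comparison asks how the cells differ with EGF after radiation. Both groups were irradiated, so no library shows the unirradiated state. The labels used here do not state the dose or schedule of EGF, the sort gate, the sex of the mice or the number of mice behind a library, so p-values measure the spread between libraries, which may be technical.

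A cell that has copied its DNA enters mitosis when cyclin B and Cdk1 form an active kinase. Condensin and topoisomerase II then compact the chromosomes, kinetochores built on the centromere histone Cenpa catch spindle microtubules, and the spindle checkpoint holds the anaphase promoting complex back until every chromosome is attached. That complex marks securin and the cyclins for destruction, the sister chromatids part, and a contractile ring guided by the central spindle divides the cell. Most of these genes are transcribed together late in the cycle, under the DREAM and MuvB complexes, B-Myb and FoxM1, through a cell cycle homology region (CHR) and CCAAT boxes in their promoters. In the marrow most long-term stem cells are quiescent, while many progenitors cycle.

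The promoters are shown first because these genes are known for this shared architecture. Windows of 300 bases, from 250 before to 50 after the start site, came from RefSeq (GRCm38.p6) and were found for 41 of the 49 genes, in 45 windows. They were searched for the CHR letters TTTGAA on either strand or TTTAAA, and for CCAAT on either strand. A CHR match was present in 84.4% of the 45 windows, against 19.6% of 11924 windows of the genes tested and 27.6% of all 32851 windows of the table. CCAAT was present in 80.0%, against 38.0% and 37.4%, and 2 or more CCAAT in 51.1%, against 14.5% and 11.7%. Both kinds stood in 75.6% of the windows, against 7.71% and 10.7%. The letters of the 2 motifs overlapped in 1 of the 45 windows (2.22%, against 0.143% and 0.201%). Of the 5 genes with neither, Mad2l1, Ncaph, Nuf2, Nusap1 and Pttg1, the search says only that these letters are not in those windows. A match is a string of letters and not a measured binding site.

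The 120 bases upstream of the RefSeq start are printed below for 9 genes, 5′ to 3′ on the gene's own strand, with CHR and CCAAT letters in capitals (TTCAAA and ATTGG are the same motifs on the other strand). The first 8 are examples from several roles, the cyclins, the centromere and chromosome structure among them, and Mad2l1 is shown as the gene with neither motif and with the smallest p of the 49. The GENCODE annotation starts Mad2l1 at chr6:66535390, past the end of the RefSeq window searched for this gene. The bases just before that start were therefore not all searched. For Ccnb1, Cdk1, Cdc20, Ube2c and Cenpa the GENCODE gene starts inside the printed stretch, for Cenpa at chr5:30666777. Some of the marked letters, the CHR matches of Ccnb1, Ube2c and Cenpa among them, thus lie inside the GENCODE gene. The stretches lie at chr13:100786487-100786606 (minus strand) for Ccnb1, chr9:70421555-70421674 (minus strand) for Ccnb2, chr10:69352913-69353032 (minus strand) for Cdk1, chr4:118437344-118437463 (minus strand) for Cdc20 and chr2:164769809-164769928 (plus strand) for Ube2c. Those of the remaining 4 lie at chr11:99024190-99024309 (minus strand) for Top2a, chr7:122159315-122159434 (plus strand) for Plk1, chr5:30666766-30666885 (plus strand) for Cenpa and chr6:66535101-66535220 (plus strand) for Mad2l1.
Ccnb1: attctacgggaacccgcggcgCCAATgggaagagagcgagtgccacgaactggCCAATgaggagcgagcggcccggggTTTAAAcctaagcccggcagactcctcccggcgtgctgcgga
Ccnb2: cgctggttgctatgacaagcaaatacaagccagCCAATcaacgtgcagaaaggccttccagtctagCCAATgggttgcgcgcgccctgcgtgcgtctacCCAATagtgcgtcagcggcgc
Cdk1: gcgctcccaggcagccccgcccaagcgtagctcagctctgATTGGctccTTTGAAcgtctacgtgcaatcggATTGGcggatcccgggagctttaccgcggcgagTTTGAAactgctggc
Cdc20: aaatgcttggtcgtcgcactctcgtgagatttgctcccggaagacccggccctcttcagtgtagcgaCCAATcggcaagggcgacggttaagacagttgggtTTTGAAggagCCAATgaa
Ube2c: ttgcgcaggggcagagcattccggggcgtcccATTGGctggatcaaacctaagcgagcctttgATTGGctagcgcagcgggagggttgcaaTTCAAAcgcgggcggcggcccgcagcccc
Top2a: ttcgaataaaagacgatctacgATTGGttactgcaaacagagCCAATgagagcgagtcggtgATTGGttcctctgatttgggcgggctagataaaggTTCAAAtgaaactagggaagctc
Plk1: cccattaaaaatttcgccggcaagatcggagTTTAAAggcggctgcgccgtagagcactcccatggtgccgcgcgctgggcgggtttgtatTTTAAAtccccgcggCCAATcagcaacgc
Cenpa: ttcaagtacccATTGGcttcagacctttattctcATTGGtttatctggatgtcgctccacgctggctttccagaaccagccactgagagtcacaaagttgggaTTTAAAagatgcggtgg
Mad2l1: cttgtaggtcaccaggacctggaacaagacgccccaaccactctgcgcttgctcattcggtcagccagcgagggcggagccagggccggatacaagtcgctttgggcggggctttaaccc

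Cdk1 carried TTTGAA at 2 places, just upstream of its RefSeq start and between its CCAAT boxes, and Plk1 carried TTTAAA at 2. Ccnb1, Cdc20, Ube2c, Top2a and Cenpa each had 1 CHR match downstream of at least 1 CCAAT box. Ccnb2 had 3 CCAAT boxes and no CHR match in this stretch, while its full window held 2 CHR matches. The 34 genes with a CHR match in the full window had a median log2 fold change of 0.11 (EGF over saline, defined below), and the 7 without had 0.15. Without the library EGF replicate 5 these medians were 0.03 and -0.003.

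Library totals were alike, from 6805106 to 8370820 counts, but 1 library stood apart. In 9 libraries between 18734 and 20046 genes had a count, and in EGF replicate 5 only 12731 did. Its log2 deviations from the saline mean had an SD of 1.92 over all genes tested, where the other 9 libraries lay between 0.31 and 0.58. Most comparisons that rest on it are therefore given with and without it, or with its own value named. Kit, a receptor that marks these cells, had 3008 to 4034 counts in single libraries. Of the 9 T and NK cell markers, Cd3d, Cd3e, Cd8a and Gzma did not exceed 18 counts and Cd3g and Klrb1c 24, while Nkg7 reached 361, Ncr1 101 and Cd4 82. Pooled RNA cannot separate fewer dividing cells from less RNA per dividing cell.

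All 49 genes passed the filter on low counts (counts of 23 to 16460 in single libraries), and 0 differed between EGF and saline in the quasi-likelihood test of edgeR, with p adjusted after Benjamini and Hochberg over the 12874 genes tested. Their adjusted p lay between 0.552 and 0.963. Over all genes 1 passed, 0.00777% of those tested. DESeq2 and limma-voom with sample quality weights also called 0 of the 49. At an unadjusted p under 0.05, Cenpa was higher and Mad2l1 lower, 1 gene each way, where 6.14% and 2.73% of all genes tested were (8.87% in either direction). A smaller p than that of Mad2l1 was found for 294 genes.

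Levels are in CPM, counts scaled to a common library size after TMM, and a log2 fold change is EGF minus saline. It was above 0 for 30 of the 49 genes, with a median of 0.09, beside 48.5% and -0.01 over all genes tested. Without EGF replicate 5 it was above 0 for 23 and below for 26, with a median of -0.01, and the sign turned for Cdc25b, Cdca8, Kif2c, Nuf2, Nusap1, Prc1 and Smc4. The median size of the change, regardless of sign, fell from 0.24 to 0.06 with that library left out, while over all genes it went from 0.24 to 0.15.

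Each 95% interval below is for 1 gene, with no allowance for 49 genes. It does not bound a difference between mice, as it rests on the spread between libraries. With all 10, the 95% interval of the fold change lay within 1.5-fold either way for 23 of the 49 genes and within 2-fold for 44. Without EGF replicate 5 it lay within 1.5-fold for 47 genes, the 2 others being Plk1 and Pttg1, and within 2-fold for all 49. The spread between libraries was small: the median SD of log2 levels was 0.15 over the 49 genes among saline libraries, beside 0.18 over all genes, and 0.12 beside 0.20 among EGF replicates 1 to 4.

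**Figure D1:**
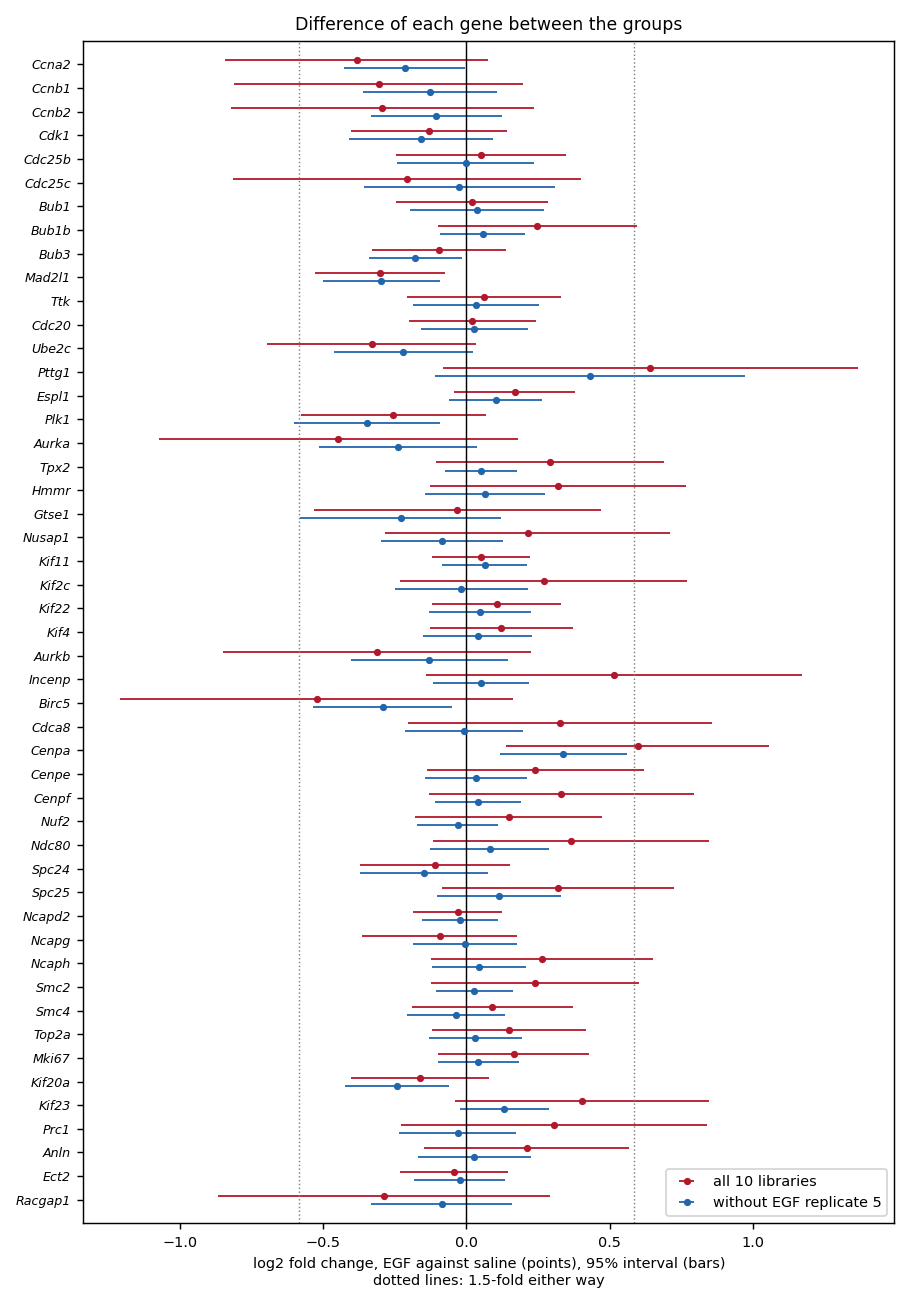
Log2 fold change of EGF over saline (x axis) for each of the 49 genes (y axis, by role), with the 95% interval from edgeR as a bar; red is the fit of all 10 libraries and blue the fit without EGF replicate 5, and dotted lines mark 1.5-fold either way. The blue intervals are shorter and 47 of them lie between the dotted lines, while in red the intervals of Cenpa and Mad2l1 are the 2 that leave out 0.

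With EGF replicate 5 left out, 0 of the 49 genes passed the adjusted test, in which 8 of 13104 genes did (0.0611%). At an unadjusted p under 0.05, Cenpa was higher, where 8.38% of all genes were. Birc5, Bub3, Ccna2, Kif20a, Mad2l1 and Plk1, 6 of the 49, were lower at that p, where 7.39% of all genes were. Their log2 fold changes lay between -0.35 (Plk1) and -0.18 (Bub3), with adjusted p between 0.192 and 0.310, so none of them counts as changed.

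The cyclins and the Cdk1 switch came first in the order of mitosis and lay lowest of the 8 roles. Of 6 genes, 1 was above 0, the median log2 fold change was -0.25, and it was -0.12 without EGF replicate 5, when 0 of the 6 were above 0. Ccna2 encodes cyclin A2, which works in S phase and G2, and was at 127, 139, 156, 149 and 141 CPM in Saline replicates 1 to 5 and at 136, 143, 110.1, 102 and 54.8 CPM in EGF replicates 1 to 5. EGF replicates 3, 4 and 5 lay under every saline library, and the other 2 among them. The means were 142 ± 11.1 CPM with saline and 109 ± 34.9 CPM with EGF (SD, n = 5 each), a log2 fold change of -0.38 (SE 0.21, edgeR adjusted p = 0.568), or -0.22 without EGF replicate 5.

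Ccnb1, the main mitotic cyclin, stood at 42.6, 49.9, 58.1, 60.2 and 49.5 CPM with saline and at 46.8, 54.9, 44.2, 45.1 and 19.6 CPM with EGF. EGF replicates 1 to 4 lay within the saline range and replicate 5 far below it. The log2 fold change was -0.31 (SE 0.23, adjusted p = 0.652), and -0.13 without that library. Its relative Ccnb2 gave 66.1 ± 6.05 CPM with saline and 53.9 ± 18.9 CPM with EGF, with replicate 5 at 23.4 CPM. The log2 fold change of Ccnb2 was -0.29, or -0.10 without that library. The ratio of Ccnb1 to Ccnb2 counts in EGF replicate 5 was 0.838, inside the saline range of 0.716 to 0.875, so both cyclins were low together there.

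Cdk1, the kinase they activate, read 62.3, 70.7, 96.5, 80.5 and 73.3 CPM with saline and 75.7, 73.5, 63.5, 62.2 and 75.2 CPM with EGF. The groups overlapped almost fully, and EGF replicate 5 was in the middle of them (log2 fold change -0.13, SE 0.12, adjusted p = 0.714). The ratio of Ccnb1 to Cdk1 counts was 0.602 to 0.748 in the saline libraries, 0.618 to 0.746 in EGF replicates 1 to 4 and 0.261 in EGF replicate 5. Cdc25b, a phosphatase that removes the inhibitory phosphates of Cdk1, had 35.8, 35.0, 26.7, 30.6 and 27.8 CPM with saline and 30.0, 35.4, 28.4, 30.8 and 37.0 CPM with EGF, again with overlapping groups (0.05, SE 0.13). Cdc25c, its mitotic relative, was at 15.03 ± 2.76 and 13.01 ± 4.19 CPM, with 5.88 CPM in EGF replicate 5 (log2 fold change -0.21, or -0.02 without it).

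The spindle assembly checkpoint held the gene with the smallest p of the 49. Mad2l1 encodes Mad2, which sequesters Cdc20 while a kinetochore is unattached. Its levels were 58.6, 65.0, 72.5, 71.5 and 58.9 CPM with saline and 58.4, 55.8, 46.7, 51.9 and 52.4 CPM with EGF. Every EGF library lay below every saline library, EGF replicate 1 by a hair, and EGF replicate 5 was no outlier here. The means were 65.3 ± 6.63 and 53.0 ± 4.45 CPM (SD, 5 libraries each). They gave a log2 fold change of -0.30 (SE 0.10, 95% interval -0.53 to -0.07, edgeR adjusted p = 0.552). Without EGF replicate 5 it was -0.30 as well (adjusted p = 0.192). Mad2l1 was the 1 gene of the 49 whose groups did not overlap, where those of 3.27% of all genes tested did not.

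For its partners the groups overlapped. Bub3, which docks the checkpoint kinase Bub1 and BubR1 onto kinetochores, was at 67.6, 66.8, 75.3, 70.8 and 66.2 CPM with saline and at 59.6, 68.4, 57.6, 59.8 and 79.4 CPM with EGF. Of the EGF libraries, 3 lay under the saline range, 1 inside and 1 above, and the log2 fold change was -0.09 (SE 0.11, adjusted p = 0.757) or -0.18 without EGF replicate 5. Bub1b, which encodes BubR1, stood at 171 ± 11.7 and 203 ± 57.5 CPM, with 304 CPM in EGF replicate 5 and 178 ± 13.02 CPM (SD, n = 4) in the other EGF libraries. Bub1 (47.1 ± 6.39 and 47.8 ± 4.58 CPM) and the checkpoint kinase gene Ttk (30.8 ± 2.22 and 32.2 ± 3.77 CPM) had nearly equal means.

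The anaphase promoting complex and the genes of sister separation gave 3 of 4 log2 fold changes above 0 (median 0.09, and 0.07 without EGF replicate 5). Ube2c is the enzyme that starts ubiquitin chains for the complex. It was at 43.9, 48.8, 56.0, 56.9 and 54.1 CPM with saline and at 49.03, 51.9, 40.5, 37.0 and 27.9 CPM with EGF. EGF replicates 3, 4 and 5 lay below the saline range, as for Ccna2 (log2 fold change -0.33, SE 0.17, adjusted p = 0.552, or -0.22 without replicate 5). Exons of Tnnc2 on the opposite strand cover 22.8% of the exonic bases of Ube2c, and whether counting used strand is not given. Such overlap also covered 12.5% for Ccna2 (Exosc9), 12.7% for Cdc25c and 13.4% for Ncapg (Lcorl). It covered 15.1% for Kif4 (Pdzd11) and 11.1% for Prc1 (Rccd1), with lower shares for some others.

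Pttg1 encodes securin, the inhibitor of separase. It was at 2.92, 4.02, 7.01, 5.51 and 4.14 CPM with saline and 6.40, 5.54, 6.42, 7.20 and 11.3 CPM with EGF. All 5 EGF libraries lay above Saline replicates 1, 2, 4 and 5, EGF replicate 2 only just, while Saline replicate 3 lay among them. The log2 fold change was the largest of the 49 at 0.64, but with an SE of 0.33 and a 95% interval of -0.08 to 1.37 (adjusted p = 0.554). Without EGF replicate 5 it was 0.43 (adjusted p = 0.408). Espl1, separase itself, was at 69.7 ± 4.73 and 78.3 ± 8.51 CPM. Cdc20, the activator that Mad2 holds back, was nearly equal at 46.0 ± 3.74 and 46.7 ± 3.33 CPM (0.02, 95% interval -0.20 to 0.24).

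**Figure D2:**
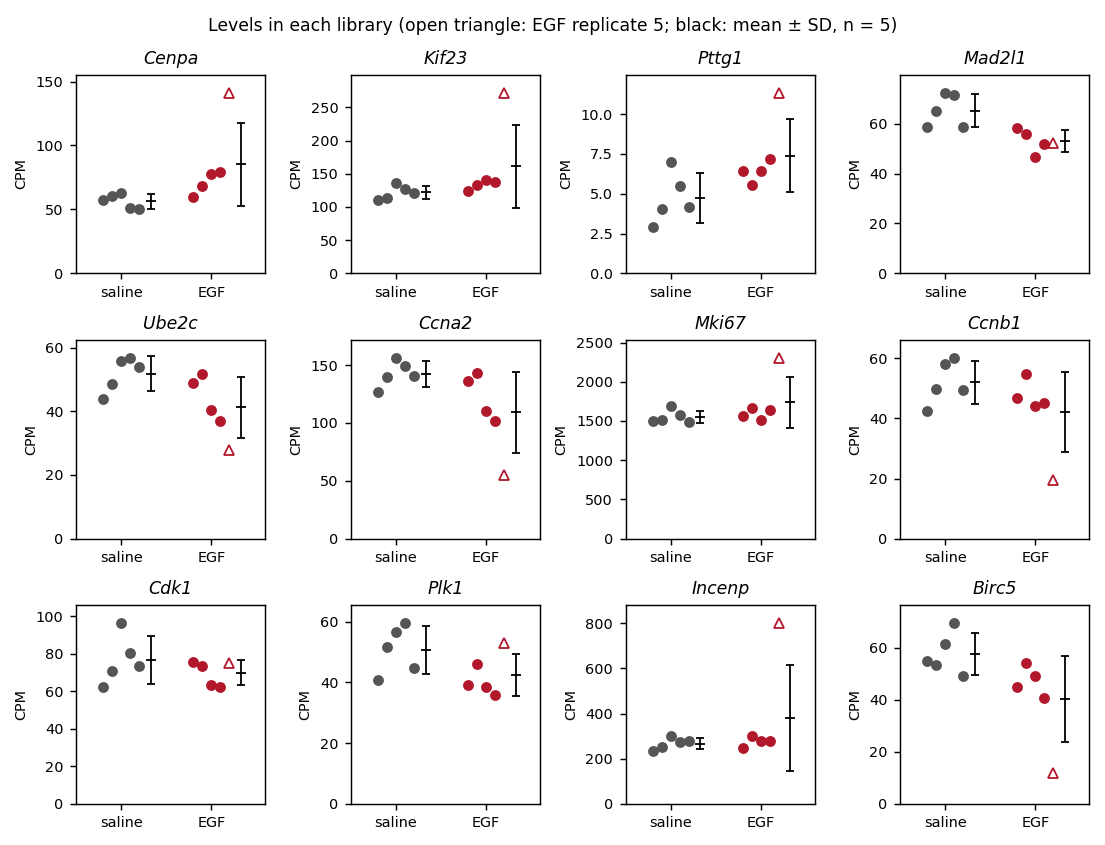
CPM (y axis, from 0) of 12 of the 49 genes in each saline library (grey) and each EGF library (red), with the mean ± SD (n = 5) in black and EGF replicate 5 as an open triangle. The triangle is far above the other 9 points for Incenp, Cenpa, Kif23 and Mki67, far below them for Birc5, Ccnb1 and Ccna2, and among the EGF points for Mad2l1, whose EGF points all lie under the saline points.

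Of the 10 genes of Polo and Aurora A kinases and spindle assembly, 7 were above 0 (median 0.11), and 5 were without EGF replicate 5 (median 0.01). Plk1, the kinase that drives mitotic entry and centrosome maturation, read 50.6 ± 7.83 CPM with saline and 42.4 ± 6.91 CPM with EGF. Its EGF replicates 1, 3 and 4, at 39.1, 38.5 and 35.7 CPM, lay under the lowest saline library at 40.9 CPM. EGF replicate 5, at 52.8 CPM, was the highest of its group, so leaving it out moved the log2 fold change from -0.26 (adjusted p = 0.584) to -0.35 (adjusted p = 0.210). Aurka, the centrosomal Aurora kinase, was at 33.7 ± 4.57 and 24.7 ± 9.56 CPM, with EGF replicates 3, 4 and 5 at 25.0, 25.4 and 9.11 CPM. All 3 lay under the lowest saline library, at 25.6 CPM. The log2 fold change of Aurka was -0.45, or -0.24 without EGF replicate 5.

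Tpx2, the activator that brings Aurora A to the spindle, was instead high in EGF replicate 5, at 362 CPM against 174 to 200.5 CPM with saline. The ratio of Tpx2 to Aurka counts was 4.89 to 6.78 in saline libraries, 5.72 to 7.53 in EGF replicates 1 to 4 and 39.8 in EGF replicate 5. Hmmr and Nusap1, which organize spindle microtubules, followed Tpx2: they stood at 201 and 216 CPM in that library, with saline means of 98.0 ± 11.7 and 107 ± 9.82 CPM. Gtse1, a microtubule regulator also known for restraining p53 in G2, was at 21.5 ± 4.23 and 21.1 ± 6.56 CPM (log2 fold change -0.03, or -0.23 without EGF replicate 5).

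Among the 4 kinesins of this role, Kif2c deviated most in EGF replicate 5. Kif11, whose motor pushes spindle poles apart, was at 255 ± 21.5 and 264 ± 12.7 CPM, with an interval of -0.12 to 0.22. Kif22 and Kif4, which move chromosome arms, had log2 fold changes of 0.11 and 0.12, or 0.05 and 0.04 without EGF replicate 5. That library was the highest for both, at 74.1 and 104 CPM, where saline reached 61.3 and 90.1 CPM. Kif2c, which takes microtubules apart at centromeres, was at 83.9 CPM in EGF replicate 5 and at 40.0 ± 5.53 CPM in the other 4, beside 40.5 ± 4.07 CPM with saline.

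The chromosomal passenger complex has 4 subunits that work as 1 unit at centromeres and then at the midzone. In EGF replicate 5, where 49.6% of all genes deviated over 2-fold from the saline mean, RNA levels within the complex moved in both directions. Aurkb, its kinase, stood at 46.1, 55.9, 70.4, 68.7 and 67.7 CPM with saline and at 52.9, 66.6, 57.1, 49.5 and 22.4 CPM with EGF. EGF replicates 1 to 4 lay inside the saline range and replicate 5 under it (log2 fold change -0.31, SE 0.24, adjusted p = 0.665, or -0.13 without it). Birc5, survivin, had 54.8, 53.4, 61.6, 69.5 and 49.01 CPM with saline and 45.02, 54.1, 48.9, 40.6 and 11.9 CPM with EGF. Here 4 of the EGF libraries were below the saline range, if barely so for replicate 3, and the log2 fold change was -0.52 (SE 0.31, adjusted p = 0.593), or -0.29 without replicate 5 (adjusted p = 0.242).

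Incenp, the scaffold that holds these subunits, was at 233, 253, 299, 272 and 277 CPM with saline and at 248, 301, 279, 278 and 801 CPM with EGF. EGF replicates 1, 3 and 4 lay in the saline range, replicate 2 just above it and replicate 5 far above it. Cdca8, which encodes borealin, behaved likewise with 178 CPM in that library and 77.2 ± 3.20 CPM (SD, n = 4) in the other EGF libraries, beside 77.5 ± 10.5 CPM with saline. The ratio of Incenp to Birc5 counts was 3.91 to 5.65 in saline libraries and 5.50 to 6.84 in EGF replicates 1 to 4, but 67.3 in EGF replicate 5. That of Incenp to Aurkb ran from 3.95 to 5.07 and from 4.53 to 5.60, and was 35.7 in EGF replicate 5.

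At the centromere and kinetochore 6 of 7 genes were above 0, with a median of 0.32; without EGF replicate 5 it was 5 of 7 with a median of 0.04. Cenpa, the histone H3 variant that marks centromeres, was at 57.0, 60.7, 62.9, 50.8 and 50.1 CPM with saline and at 59.6, 68.6, 77.3, 79.3 and 141 CPM with EGF. EGF replicates 2 to 5 lay above every saline library, and replicate 1 inside their range. The means were 56.3 ± 5.74 and 85.2 ± 32.3 CPM (SD, 5 libraries each). They gave a log2 fold change of 0.60 (SE 0.21, 95% interval 0.14 to 1.06, edgeR adjusted p = 0.552). Left without replicate 5, it was 0.34 (SE 0.10, adjusted p = 0.180). The ratio of Cenpa to Mad2l1 counts was 0.711 to 0.972 with saline, 1.02 to 1.66 in EGF replicates 1 to 4 and 2.70 in EGF replicate 5; this pair was picked as the extremes in either direction.

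The other kinetochore genes differed in EGF replicate 5 and little elsewhere. Cenpe, a kinesin that carries chromosomes to the spindle equator, and Cenpf, a large protein of the outer kinetochore, reached 377 and 647 CPM there. Their means in EGF replicates 1 to 4 were 213 ± 11.7 and 307 ± 18.4 CPM, beside 208 ± 24.0 and 298 ± 23.5 CPM with saline. In the Ndc80 complex, which grips microtubule ends, Ndc80, Nuf2 and Spc25 were highest in EGF replicate 5 (124, 137 and 86.3 CPM), while the fourth subunit Spc24 was at 46.6 CPM, within its saline range of 36.6 to 51.2 CPM. The ratio of Ndc80 to Spc24 counts was 2.65 there and 1.01 to 1.55 in the other 9 libraries.

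Condensin, topoisomerase and chromosome surface genes gave 5 of 7 above 0 (median 0.15, or 0.03 without EGF replicate 5). Mki67, the Ki-67 antigen that coats mitotic chromosomes and is absent from resting cells, had 1504, 1507, 1685, 1574 and 1483 CPM with saline. With EGF it had 1558, 1671, 1515, 1644 and 2306 CPM. EGF replicates 1 to 4 all fell within the saline range, and the log2 fold change was 0.17 (SE 0.12, 95% interval -0.10 to 0.43, adjusted p = 0.643), or 0.04 without replicate 5 (interval -0.10 to 0.18). Top2a, which untangles sister DNA, was at 818, 874, 1001, 894 and 892 CPM with saline and at 948, 1007, 832, 879 and 1299.8 CPM with EGF, and gave 0.15 (SE 0.12, adjusted p = 0.672), or 0.03. These 2 markers of cycling cells therefore overlapped between the groups outside EGF replicate 5.

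Per kilobase of exon, Mki67 and Top2a were also the most abundant of the 49 with saline, at 154 and 99.4 CPM per kb, followed by Smc4 at 84.7 CPM per kb. Pttg1 was the lowest at 2.36 CPM per kb, next to Cdc25c at 3.06 CPM per kb. With the median transcript length in place of all exonic bases, Top2a ranked 1, Smc4 2 and Mki67 6 of 49, and Pttg1 stayed at 49. Ranks between these depended on the length used (Spearman's rho of the 2 orders across genes, 0.59, as a description), so no other order is given.

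The condensin subunits Smc4 and Smc2, its paired ATPases, were at 441 ± 44.7 and 239 ± 16.1 CPM with saline and at 431 ± 31.9 and 244 ± 9.98 CPM in EGF replicates 1 to 4. Both were highest in EGF replicate 5, Smc2 at 436 CPM. Ncaph, the kleisin that closes the ring, was also high there at 112 CPM, but Ncapg, another subunit of condensin I, was at its lowest there at 50.6 CPM, and Ncapd2, a further subunit, was at 280.4 CPM, with the other EGF libraries on both sides of it (269 to 319.5 CPM). The ratio of Smc4 to Ncapg counts was 12.3 there and 4.84 to 6.71 in the other libraries.

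Central spindle and cytokinesis genes were evenly divided, 3 of 6 above 0 (median 0.08, or -0.03 without EGF replicate 5). Kif23, the kinesin of the centralspindlin complex, was at 111, 114, 136, 128 and 121 CPM with saline and 123, 133, 141, 138 and 272 CPM with EGF. EGF replicates 3 and 4 lay just above the saline range, and replicate 5 far above every other library. The log2 fold change was 0.40 (SE 0.20, adjusted p = 0.552), or 0.13 without replicate 5. Racgap1, its obligate partner in centralspindlin, was instead at 27.3 CPM in that library, against 66.8 to 97.0 CPM with saline (log2 fold change -0.29, or -0.09 without that library). The ratio of Kif23 to Racgap1 counts was 9.97 there and between 1.31 and 1.98 in the other 9 libraries.

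Kif20a, a kinesin that brings the passenger complex to the midzone, was at 76.3, 82.2, 101, 88.3 and 80.7 CPM with saline and 72.6, 72.4, 74.5, 70.5 and 93.6 CPM with EGF. EGF replicates 1 to 4 were all below the saline libraries, and replicate 5 among them (log2 fold change -0.16, adjusted p = 0.630, or -0.24 with adjusted p = 0.213 without it). Beside Mad2l1 it was the only gene of the 49 with these 4 libraries under all saline libraries, 2 of 49, where 2.46% of all genes were; 0 of 49 had them above all, where 2.5% were. Exons of Cdc23 on the other strand cover 29.3% of its exonic bases. Prc1, which bundles midzone microtubules, and Anln, a scaffold of the contractile ring, were high in EGF replicate 5 (303 and 134 CPM) and otherwise at 131 ± 8.61 and 80.0 ± 6.30 CPM, beside 134 ± 19.0 and 78.4 ± 8.86 CPM with saline. Ect2, which activates RhoA for the ring, was even across libraries at 66.4 ± 2.55 and 64.4 ± 5.04 CPM.

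**Figure D3:**
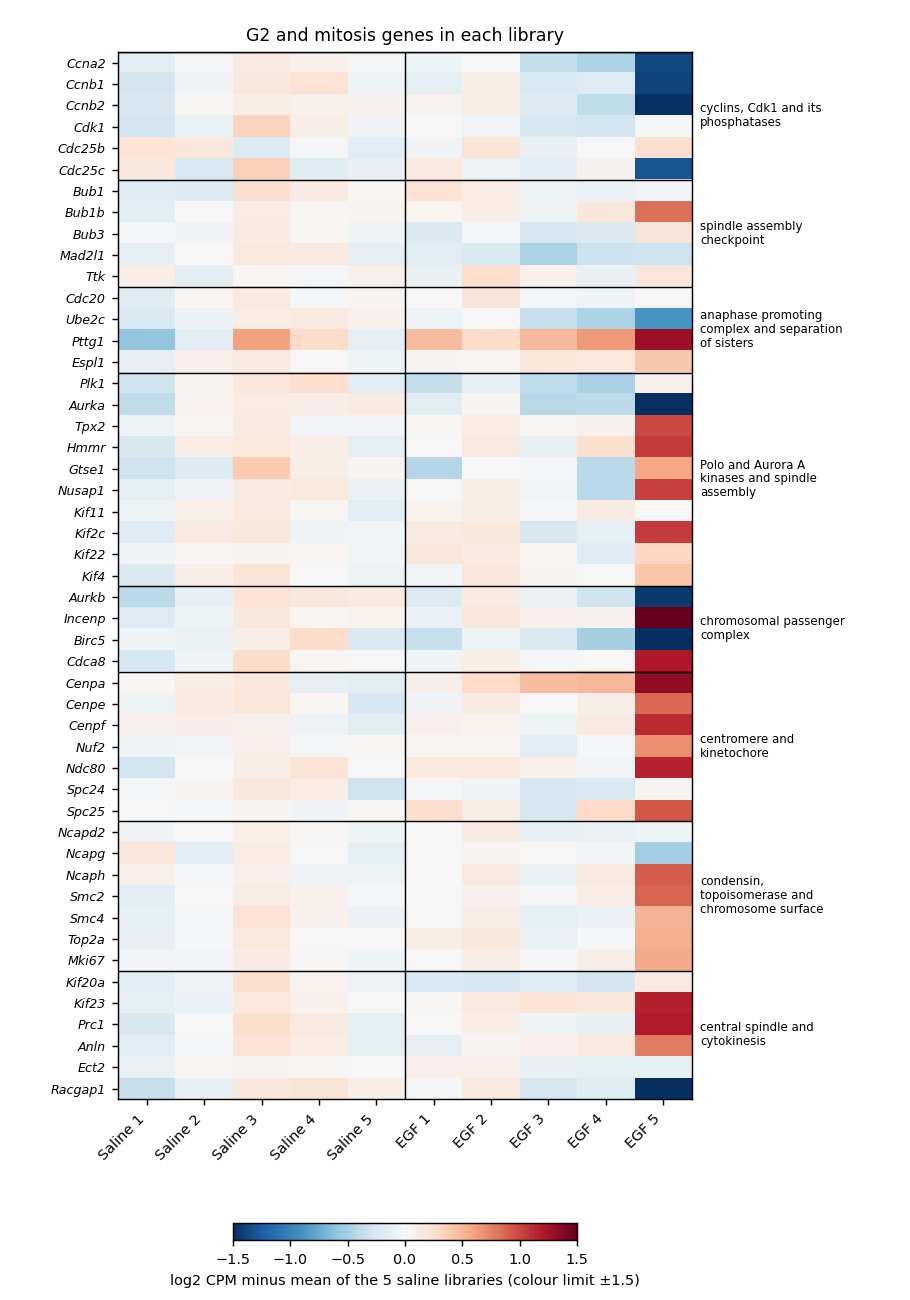
Log2 CPM minus the mean of the 5 saline libraries (colour, limited at 1.5 either way) for the 49 genes (rows, grouped by role) in the 10 libraries (columns). EGF replicate 5 is the column of strong colours in both directions, with deviations from -2.24 (Birc5) to 1.59 (Incenp); Saline replicate 3 is pale red almost throughout, and EGF replicates 3 and 4 are pale blue for many genes of the upper rows.

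Read by library, EGF replicate 5 split the 49 genes. It was the highest of the 10 libraries for 28 of the 49, where it was for 33.7% of all genes tested, and the lowest for 10, where it was for 47.7%. The 10 were Ccna2, Ccnb1, Ccnb2, Cdc25c, Ube2c, Aurka, Aurkb, Birc5, Ncapg and Racgap1. The deviation from the saline mean exceeded 2-fold for 19 of the 49, beside 49.6% of all genes. No share over all gene pairs was taken for the ratios of partner genes given above. The ratio of Smc4 to Smc2 counts was 1.43 in this library and 1.74 to 1.99 with saline. That of Ndc80 to Nuf2 was 0.903 and 0.557 to 0.768, and that of Bub1b to Mad2l1 was 5.80 and 2.41 to 2.98. Across the 49 genes the deviation had a Spearman's rho of 0.27 with exonic length and -0.10 with GC content (0.17 and -0.08 over all genes with both values), given as a description of 1 library. The part of RNA quality or input in this library was not tested.

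The summed level of the 49 genes in EGF replicate 5 was 10870 CPM, against 6723 to 7992 CPM in saline libraries and 6886 to 7757 CPM in EGF replicates 1 to 4. Mki67 alone made up 2306 CPM of that sum, and the 10 genes listed above stood low in the same library. The EGF mean of the sum was 0.14 above the saline mean on the log2 scale, and 0.0055 above it without that library. The S phase genes summed to 6465 CPM in that library, to 4868 to 5626 CPM in EGF replicates 1 to 4 and to 5078 to 5979 CPM with saline.

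**Figure D4:**
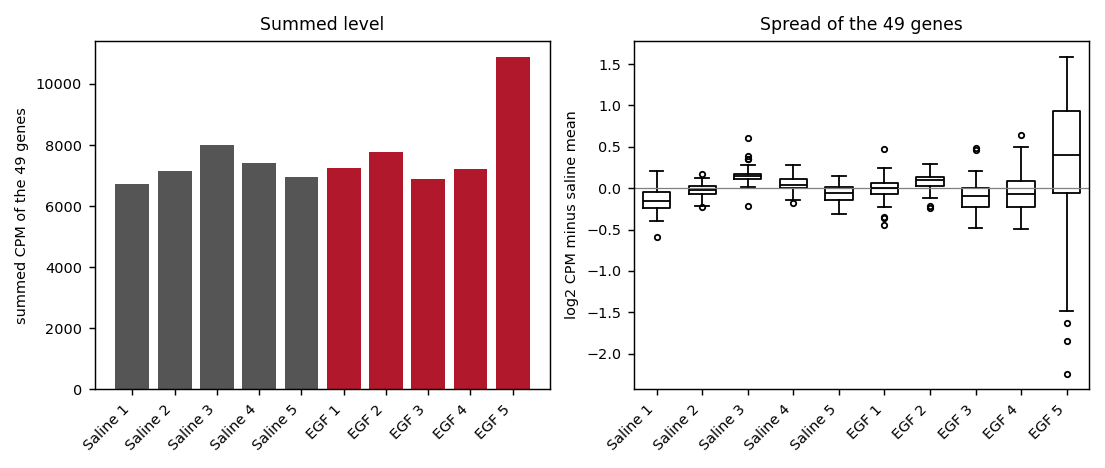
Left, summed CPM of the 49 genes in each library (bars from 0; grey saline, red EGF). Right, box plots over the 49 genes of log2 CPM minus the saline mean (box: quartiles, line: median, whiskers: to the last gene within 1.5 box lengths, circles: genes beyond). EGF replicate 5 has the tallest bar, at 10870 CPM, and the widest box.

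Smaller deviations were shared by many of the 49 genes in Saline replicates 1 and 3. Saline replicate 3 was the highest saline library for 37 of the 49 (19.8% of all genes) and above the saline mean for 48. Saline replicate 1 was the lowest for 33 (25.2% of all genes). In the EGF group, replicates 3 and 4 lay under the lowest saline library for 14 and 15 of the 49 genes. These counts were close to the shares over all genes tested, 24.9% and 26.8%. EGF replicates 1 and 2 lay under it for 6 and 2, where they did for 16.5% and 14.9% of all genes. Over the highest saline library were 3 and 9 of the 49 in replicates 3 and 4 (24.1% and 26.7% of all genes), and 3 and 10 in replicates 1 and 2 (17.1% and 16.3%).

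The further 71 G2 and mitosis genes, listed apart from the 49, gave 35 log2 fold changes above 0, a median of -0.02, and 0 past the adjusted test. At an unadjusted p under 0.05, where 8.87% of all genes tested were, lay Kpna2, a nuclear import carrier (-0.35, adjusted p = 0.552), and Ncapd3 of condensin II (0.23, adjusted p = 0.552). Without EGF replicate 5 they were at -0.27 and 0.13. The subunits of the anaphase promoting complex were below 0 in 12 of 16 (median -0.04, or -0.07 without EGF replicate 5), with 0 past either threshold. The smallest p were those of Anapc7 and Cdc16 (-0.31 and -0.30, or -0.21 and -0.18 without EGF replicate 5). The 10 cohesin genes, whose ring holds sister chromatids together until anaphase, were all above 0 (median 0.16, or 0.05 without EGF replicate 5, where again all 10 were). Mau2, a cohesin loader, was at 77.5 ± 1.40 and 95.9 ± 12.7 CPM (0.31, SE 0.10, adjusted p = 0.552, or 0.23 without EGF replicate 5). Of these lists, too, 0 genes passed.

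The factors that transcribe these genes were measured as well. Foxm1 was at 63.4 ± 8.16 and 71.4 ± 8.69 CPM (0.17, adjusted p = 0.631, or 0.11 without EGF replicate 5) and Mybl2, which encodes B-Myb, at 44.6 ± 3.89 and 41.2 ± 3.22 CPM (-0.12, adjusted p = 0.702, or -0.16). Of 14 such genes, 3 were above 0 (median -0.13, and -0.05 without EGF replicate 5). Tfdp1, the DNA-binding partner of the E2F factors, was at 201 ± 10.2 and 162 ± 10.4 CPM, a log2 fold change of -0.31 (SE 0.07, edgeR adjusted p = 0.552), or -0.28 without EGF replicate 5. Rbbp4, a subunit of MuvB and other chromatin complexes, was at 231 ± 12.4 and 190.2 ± 31.3 CPM (-0.28, adjusted p = 0.552, or -0.18 without that library).

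Genes of the stages before mitosis were counted next. Of 47 DNA replication and S phase genes 17 were above 0, with a median of -0.06, and without EGF replicate 5 it was 12 of 47 with -0.09. Gins2 of the replicative helicase (-0.35), the sliding clamp Pcna (-0.22) and Rrm2 of ribonucleotide reductase (-0.57) had the smallest p, each with an adjusted p of 0.552. They were at -0.27, -0.16 and -0.37 without EGF replicate 5. Cdkn1b, which encodes the CDK inhibitor p27, was at 106 ± 6.45 and 131 ± 16.7 CPM (0.30, SE 0.09, adjusted p = 0.552, or 0.22 without EGF replicate 5). Cdkn2c, the CDK4 and CDK6 inhibitor p18, was at 20.5 ± 5.82 and 28.1 ± 2.30 CPM (0.46, adjusted p = 0.552), and its target Cdk4 had -0.32 (adjusted p = 0.552). These were 0.50 and -0.19 without EGF replicate 5. In this list 6 of 11 genes tested were above 0.

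Cell type markers differed between the libraries as well. Of 8 granulocyte-monocyte progenitor markers, 0 were above 0 (median -0.86, or -0.90 without EGF replicate 5). At an unadjusted p below 0.05, 5 were lower, where 2.73% of all genes tested were, and 0 passed the adjusted test. Prtn3, Ms4a3 and Ctsg had -1.11, -0.97 and -0.81, adjusted p 0.552 each (-0.95, -1.01 and -0.84 without EGF replicate 5). Their sum ranged from 1699 to 5566 CPM with saline and from 1759 to 2632 CPM with EGF, so the lowest saline library, replicate 1, lay under all EGF libraries. That library was also the lowest saline one for 33 of the 49 genes. Saline replicate 4 had the highest sum, 5566 CPM, but was the highest saline library for only 7 of the 49. Saline replicate 3, the highest for 37, had a sum of 3789 CPM. Stem and progenitor markers were above 0 in 9 of 15 (median 0.08; 11 of 15 and 0.12 without EGF replicate 5), with the smallest p for Hoxa9 (0.41), Meis1 (0.34) and Kit (0.18), adjusted p 0.552 each. These 3 were at 0.29, 0.27 and 0.18 without EGF replicate 5. Their sum was 2149 to 2436 CPM with saline and 2412 to 2684 CPM with EGF.

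Erythroid markers summed to 397 to 504 CPM with saline and to 439 to 648 CPM with EGF (475 to 648 CPM in EGF replicates 1 to 4). The globin genes among them did not exceed 32 counts. Plasma cell markers summed to 694 to 1500.2 CPM with saline and 173 to 946 CPM with EGF (450 to 946 CPM in EGF replicates 1 to 4). These sums came mostly from Jchain, and 1 of 7 was above 0 (median -0.52, or -0.27 without EGF replicate 5). Late neutrophil markers lay between 1.997 and 516 CPM, highest in EGF replicate 5, and megakaryocyte markers between 141 and 275 CPM, with Ppbp, Gp1bb and Gp6 at 6 counts or fewer. B cell markers lay between 183 and 413 CPM, mostly from Dntt, which early progenitors also express. T and NK markers lay between 11.1 CPM, in EGF replicate 5, and 60.8 CPM, and stromal markers between 166 and 813 CPM. The part of cell composition in the values of the 49 genes was not tested.

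**Figure D5:**
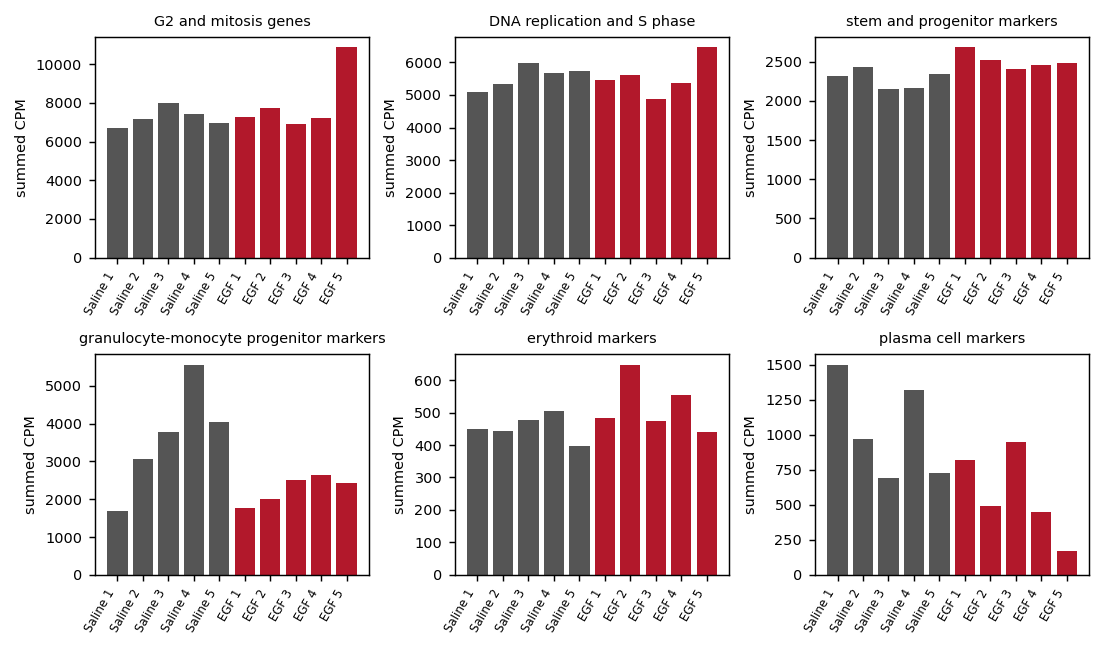
Summed CPM (y axis, from 0; scales differ between panels) of the 49 genes and of 5 other lists in each saline (grey) and EGF (red) library. Granulocyte-monocyte progenitor markers range from 1699 to 5566 CPM among the saline libraries alone, a wider spread than the 6723 to 7992 CPM of the G2 and mitosis genes, and plasma cell markers are lowest in EGF replicate 5.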

How the data were processed

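The authors deposited 1 table of whole-number read counts per library, unnormalized, with a row per gene (from the values and per the file headers). The tools bcl2fastq 2.17 and STAR and the build GRCm38 are listed, without their settings, in the submitters' processing notes; neither these notes nor the labels used here name a counting tool or strand setting. Libraries were made with a Clontech kit with PCR, per the labels' protocols, so intervals cover counting and replicate error and not PCR copies.

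Counts were fitted with edgeR 4.0.16 in R 4.3.3 (TMM scaling, filterByExpr with its minimum count of 10, quasi-likelihood F test, Benjamini-Hochberg over all genes tested, threshold 0.05). Log2 levels used a prior count of 2. Alternatives were DESeq2 1.42.0 with its Wald test, RLE scaling, no filter, limma 3.58.1 voom with sample quality weights, the replicate number as a block, and libraries left out (for the summed level, chosen after seeing the data). Positions and exon overlaps are from GENCODE M21 (GRCm38), promoters from RefSeq (GRCm38.p6). The 49 genes, the other lists and the tests were chosen with earlier results of these data known. Values in every library were given for the 3 genes with the smallest p in each direction, for Mki67, Top2a, Ccnb1, Cdk1, Aurkb, Bub3 and Cdc25b, and, chosen after their values were seen, for Birc5, Incenp and Kif20a. From other lists up to 3 genes with the smallest p were taken; Foxm1, Mybl2 and single markers named beside a sum were chosen after their values were seen.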

Additional observations from a re-analysis of the deposited data

Results flagged for a closer look

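In a group of 5 libraries, a level was picked out where the gap from the highest or lowest library to its nearest neighbour exceeded 0.71 of the group's whole range (Dixon's critical value). Chance picks out about 1 in 20 groups, so single entries here carry little weight.

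In EGF replicate 5 the highest level of its group was picked out 21 times, for the genes below and for their sum. At the centromere and kinetochore these were Cenpa (141 CPM), Cenpe (377 CPM), Cenpf (647 CPM), Ndc80 (124 CPM) and Nuf2 (137 CPM). Of the spindle and checkpoint genes they were Tpx2 (362 CPM), Hmmr (201 CPM), Nusap1 (216 CPM), Kif2c (83.9 CPM) and Bub1b (304 CPM). Of the passenger complex they were Incenp (801 CPM) and Cdca8 (178 CPM). On chromosomes they were Mki67 (2306 CPM), Smc2 (436 CPM) and Ncaph (112 CPM). In cytokinesis they were Kif23 (272 CPM), Kif20a (93.6 CPM), Prc1 (303 CPM) and Anln (134 CPM), and in sister separation Pttg1 (11.3 CPM). The sum over all 49 genes in that library was 10870 CPM. No share over all genes tested was taken under this rule. EGF replicate 5 was the highest of all libraries for 33.7% of all genes tested and the lowest for 47.7%. The count of 21 therefore does not set these genes apart from other genes in that library.

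The same library was picked out as the lowest for Ncapg (50.6 CPM). EGF replicate 2 was the highest for Cdc20 (52.4 CPM). Saline replicate 1 was the lowest of its group for Aurka (25.6 CPM), Ccnb2 (55.6 CPM) and Ect2 (61.9 CPM).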

How the results depend on the processing

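None of the 49 genes passed in any of the 16 alternative settings, and the count above 0 ranged from 23 (without EGF replicate 5) to 33 (without EGF replicates 3 and 4), with medians of -0.01 and 0.16. The summed level, 0.14 higher with EGF on the log2 scale (0.13 by raw library totals), was 0.02 higher as a mean of log2 CPM. With 1 library left out, a setting chosen after seeing the data, it ran from 0.00552 (without EGF replicate 5) to 0.191 (without EGF replicate 3). Over all genes edgeR called 1 higher and 0 lower, DESeq2 12 and 15, and the voom fit of limma with quality weights 8 and 4. The labels do not say that the replicate numbers pair the libraries. Correlations of deviations lay between -0.08 and 0.02, none best with its own number except replicate 5. With EGF replicate 5 so far apart, these correlations cannot exclude a pairing. With the replicate number as a block, 0 genes were higher. Without EGF replicates 3 and 4 it was 0, and with 1 library left out between 0 and 4 higher and between 0 and 4 lower. The sign of single genes turned with quality weights for Anln (-0.00714), Cdc25c (0.028), Cdca8 (-0.0187), Ncapg (0.0258), Nuf2 (-0.0209), Nusap1 (-0.0481), Prc1 (-0.0137) and Smc4 (-0.0222). Without EGF replicates 3 and 4 it turned for Ect2 (0.00308), Gtse1 (0.0817) and Ncapd2 (0.0146). With 1 library left out, values ran from -0.0318 to 0.0875 for Bub1, -0.0253 to 0.0582 for Cdc20, -0.23 to 0.0792 for Gtse1, -0.00284 to 0.104 for Cdc25b, -0.00794 to 0.407 for Cdca8 and -0.0172 to 0.374 for Kif2c. They ran from -0.0307 to 0.215 for Nuf2, -0.0848 to 0.336 for Nusap1, -0.0306 to 0.396 for Prc1 and -0.0355 to 0.147 for Smc4. The lower ends for Cdc25b, Cdca8, Kif2c, Nuf2, Nusap1, Prc1 and Smc4 are those without EGF replicate 5. The cause of these turns was not tested. Pttg1, with the fewest counts, had the widest interval of the 49 genes.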
